A study of Mus musculus with 2 samples.

Results

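Cebpb and 9 other genes for inducible transcription factors were followed through long-read RNA sequencing of the mouse adrenal gland. The genes are Cebpb, Cebpd, Fos, Jun, Junb, Jund, Egr1, Ier2, Atf3 and Nr4a1, and they were picked by name: every transcript model that the deposited tables assign to one of these symbols was taken, in both libraries. Of these 10 genes 9 were among the 16400 annotated genes with reads, and Atf3 had none. Their summed reads came to 1838 in replicate 1 and 3432 in replicate 2, a share of 0.463% (95% Wilson interval 0.442 to 0.484) and 0.482% (0.466 to 0.498) of the reads on annotated genes. These reads were on 15 models in replicate 1 and 25 in replicate 2.

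All tissue was adrenal gland of female B6CASTF1/J mice, hybrids of the C57BL/6J and CAST/EiJ strains, aged 25 days, and its total RNA was sequenced. The labels name no treatment. There is 1 group of 2 libraries, numbered as biological replicates 1 and 2. No second tissue, treatment or time was sampled, so no condition could be compared. The tissue descriptions number a different animal for each library, but both library descriptions carry the same animal number and both libraries carry the same donor entry, so separate animals are not certain and the spread between replicates may be technical. Replicate 1 held 426150 reads, of which 397176 lay on annotated mouse genes, and replicate 2 held 770041 and 712032. Levels are given as CPM, a gene's reads scaled to a library total of 1000000 reads on annotated genes, and a count of 0 allows up to 3 reads, or 7.55 CPM in replicate 1 and 4.21 CPM in replicate 2. Intervals and limits cover counting error only, since reads were counted without molecular identifiers.

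The tissue label was checked against marker genes. All 5 cortex markers were read (Cyp11a1, Cyp21a1, Star, Hsd3b1 and Nr5a1, 66920 and 61002 CPM summed) and so were the chromaffin cell markers Chga (1916 and 3799 reads), Th (842 and 1206), Pnmt (202 and 412) and Dbh (103 and 166). Markers of brown fat summed to 1823 and 1358 CPM, of macrophages to 106 and 115, of endothelium to 159 and 171, and of stroma to 95.7 and 159. The 5 liver markers had 93 reads in replicate 1 and 1 in replicate 2. Red blood cell markers summed to 2430 and 2976 CPM, and of the 3 T and B cell markers Cd3e was at 0. In whole tissue, fewer cells of a type and less RNA per cell cannot be told apart.

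Immediate early genes are switched on within minutes of a stimulus by transcription factors that already sit on their promoters, such as CREB, which cyclic AMP signalling activates, and SRF, which acts with ELK factors downstream of the MAP kinases. FOS and JUN proteins pair through leucine zippers to form AP-1, and C/EBP proteins pair through the same kind of zipper on other sites. Many of the messages are short-lived, and AU-rich elements with the pentamer ATTTA in their 3′ untranslated regions (UTRs) take part in that decay. In the adrenal gland, corticotropin raises cyclic AMP in cortical cells and nerve input drives chromaffin cells, and Nr4a1, Fos and Jun are known targets of such signals. Several of these genes have no intron, which bears on how a long read can be sorted into transcript models.

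The promoters of 7 of the 10 genes were found in the RefSeq table (build GRCm38.p6), and Cebpd, Egr1 and Ier2 were not. The 250 bases before the start site are shown for Cebpb, the most read member, for Nr4a1, which held the most CREB and ATF core motifs, and for Fos, a textbook cyclic AMP target with almost no reads here. Capitals mark TGACG, the core of the CREB and ATF binding site, on either strand (CGTCA where it reads on the other strand). The Cebpb stretch lies at chr2:167688665-167688914 on the plus strand, the Nr4a1 stretch at chr15:101266596-101266845 on the plus strand and the Fos stretch at chr12:85473640-85473889 on the plus strand.
Cebpb: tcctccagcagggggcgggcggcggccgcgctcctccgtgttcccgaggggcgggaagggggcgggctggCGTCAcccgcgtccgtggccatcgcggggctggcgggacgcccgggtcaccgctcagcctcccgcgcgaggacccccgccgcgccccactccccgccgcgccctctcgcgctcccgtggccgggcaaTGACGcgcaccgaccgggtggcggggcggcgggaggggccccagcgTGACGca
Nr4a1: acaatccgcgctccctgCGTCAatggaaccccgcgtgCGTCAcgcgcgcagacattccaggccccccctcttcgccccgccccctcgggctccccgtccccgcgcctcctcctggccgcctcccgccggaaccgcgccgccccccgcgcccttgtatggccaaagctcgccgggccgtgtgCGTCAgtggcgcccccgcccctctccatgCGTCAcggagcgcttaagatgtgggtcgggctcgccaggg
Fos: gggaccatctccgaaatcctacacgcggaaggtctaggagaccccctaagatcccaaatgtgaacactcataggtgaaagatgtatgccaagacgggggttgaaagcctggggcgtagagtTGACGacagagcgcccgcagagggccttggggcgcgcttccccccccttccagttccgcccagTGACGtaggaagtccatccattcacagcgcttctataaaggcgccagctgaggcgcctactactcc
TGACG was present 3 times before Cebpb, starting 180, 53 and 7 bases before the start site, 4 times before Nr4a1 and 2 times before Fos. It occurred in 17.7% of the 32817 RefSeq promoter stretches of that length. At least 3 copies were present in 0.689% of them, at least 4 in 0.137% and at least 2 in 3.90%. These shares are over all stretches and were not matched for GC. The stretches of Cebpb, Nr4a1 and Fos were 81.6%, 74.4% and 58.4% GC. Junb and Atf3 each held 1 copy, and Jun and Jund held none. None of the 7 held the full palindrome TGACGTCA (1.55% of all), the AP-1 letters TGANTCA (6.75%) or the CArG box of SRF (1.47%). TATAAA (12.4% of all) was found only before Fos among the 7, and CCAAT (33.8%) before Jun and Junb. Only exact letters within the 250 bases were counted. Near matches, such as TGACATCA before Jun, and sites farther upstream were therefore missed. The RefSeq start of Jund lies 1210 bases upstream of its GENCODE start, where its only model with reads begins. The Jund counts are for the stretch before the RefSeq start, which is not shown. The bases before the GENCODE start were not scanned. Mean levels, described next, were 109 CPM for Nr4a1 with 4 copies, 3398 for Cebpb with 3 and 114 for Junb with 1. Jun with 0 copies had 223 CPM. Jund had 739 CPM, with 0 copies in a stretch that does not adjoin its GENCODE start. Fos with 2 had 0 reads and 1 read, and Atf3 with 1 had 0 reads in both libraries. Whether the copies bear on the level was not tested.

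Cebpb, a C/EBP leucine zipper factor of differentiation and the acute phase, was the highest member, and the C/EBP pair lay far apart. Cebpb (ENSMUSG00000056501.3, chr2:167688915-167690418) had 1296 reads in replicate 1 and 2516 in replicate 2. Its level was 3263 CPM (3088 to 3446) and 3534 CPM (3397 to 3674), a mean of 3398 ± 191 (SD, n = 2). This made it the 13th of all genes by mean level. By mean level it stood between Fads2, a fatty acid desaturase (3525 ± 762), and Ubb, a polyubiquitin gene (3325 ± 725), with Chgb, a granin of chromaffin granules (3638 ± 647), above and Sparc, a matrix protein gene (3266 ± 156), below. The values of all 4 neighbours overlapped with those of Cebpb. It took 70.5% of the reads of the 10 genes in replicate 1 and 73.3% in replicate 2.

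Cebpd (ENSMUSG00000071637.5, chr16:15887286-15891031), the acute-phase relative of Cebpb, had 6 and 12 reads. That is 15.1 CPM (5.54 to 32.9) and 16.9 CPM (8.71 to 29.4), 16.0 ± 1.23 (SD, n = 2). Cebpb had 216 times the reads of Cebpd in replicate 1 and 210 times in replicate 2. Of the other C/EBP relatives and partners, 8 of 9 were read and Cebpe was at 0. The highest of them was Dbp, a PAR zipper factor of the circadian clock, at 373 and 716 CPM, followed by Cebpa, the C/EBP factor of liver and fat, at 98.2 and 98.3, and Tef at 98.2 and 82.9. The lowest read was Hlf with 3 reads in each library. Cebpb was therefore above every listed zipper relative in each library.

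The Jun family, the AP-1 subunits that can pair among themselves or with FOS proteins, was led by Jund. Jund (ENSMUSG00000071076.6, chr8:70698949-70700616), the member known for steady expression, had 295 and 524 reads, 743 and 736 CPM, 739 ± 4.82 (SD, n = 2). Jun (ENSMUSG00000052684.4, chr4:95049034-95052222), the founding subunit, had 100 and 138 reads, 252 and 194 CPM, 223 ± 41.0. Junb (ENSMUSG00000052837.6, chr8:84974484-84978718), a less active partner, had 48 and 77 reads, 121 and 108 CPM, 114 ± 8.99. Jund held 66.6% of the 443 Jun-family reads in replicate 1 and 70.9% of the 739 in replicate 2. Its ratio to Jun was 2.95 and 3.80, and its ratio to Junb was 6.15 and 6.81. The values of the 3 genes did not overlap.

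Fos, the AP-1 partner that cannot pair with itself, was almost absent. Fos (ENSMUSG00000021250.13, chr12:85473890-85477273) had 0 reads in replicate 1 and 1 in replicate 2. Atf3 (ENSMUSG00000026628.13, chr1:191170296-191218039), a stress-induced repressor of the ATF group, had 0 reads in both, which allows up to 7.55 and 4.21 CPM. Of 16 other AP-1 and ATF relatives 13 were read, and Fosl1, Batf and Batf2 were at 0. The highest were Atf4, the factor of the integrated stress response (169 and 115 CPM), Fosl2 (111 and 80.1 CPM), and Mafg, a small Maf protein gene (60.4 and 52.0 CPM). Fosb and Batf3 were the lowest read, each with 0 reads and 1 read. Among the genes for FOS proteins Fosl2 thus had the most reads, 44 and 57, of which 38.6% and 15.8% were on annotated transcripts.

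**Figure D1:**
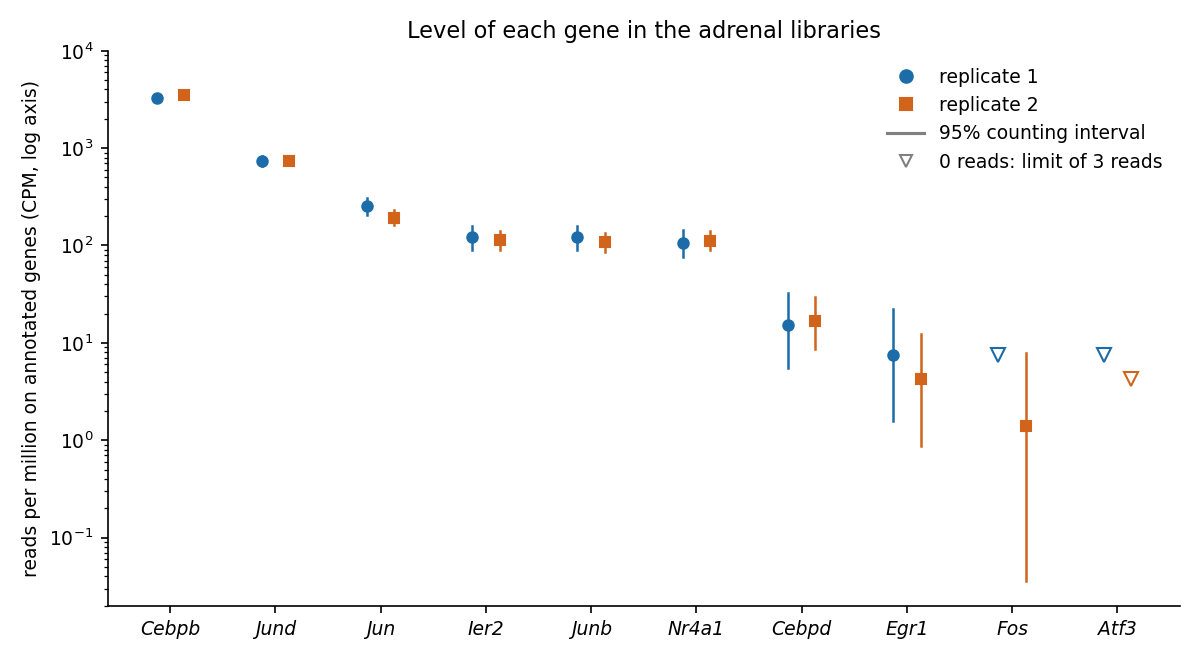
Level in CPM (log axis) of the 10 genes in replicate 1 (circles) and replicate 2 (squares), with lines for 95% counting intervals and open triangles at the limit of 3 reads where a library had 0. Cebpb sits at 3263 and 3534 CPM, Jund at 743 and 736, and Fos and Atf3 at or under the limit.

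Ier2, Junb and Nr4a1 lay close together. Ier2 (ENSMUSG00000053560.4, chr8:84661331-84662852), a small nuclear immediate early protein gene, had 48 and 81 reads, 121 and 114 CPM, 117 ± 5.02 (SD, n = 2). Nr4a1 (ENSMUSG00000023034.7, chr15:101254269-101274795), the orphan nuclear receptor NUR77 that acts on promoters of steroid synthesis genes, had 42 and 80 reads, 106 and 112 CPM, 109 ± 4.67. Ier2 overlapped with Junb, and Junb with Nr4a1, so their order was not fixed beyond the spread. Of the NR4A relatives, Nr4a2 had 2 and 5 reads and Nr4a3 was at 0 in both.

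Egr1 (ENSMUSG00000038418.7, on chromosome 18), a zinc finger factor induced through SRF and ELK, had 3 reads in each library, 7.55 and 4.21 CPM, 5.88 ± 2.36 (SD, n = 2). Its counting intervals were 1.56 to 22.1 and 0.869 to 12.3 CPM, and the one of replicate 2 took in the level of Fos there, 1.40 CPM. Egr2, Egr3 and Egr4 were at 0. In the list of 12 EGR, KLF and NR4A relatives 8 were read. They were led by Nab1, a corepressor of EGR proteins (70.5 and 92.7 CPM), Klf9 (83.1 and 77.2) and Klf2 (60.4 and 54.8). Of the Klf9 reads, 27.3% were on annotated transcripts in each library.

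Of the 9 pairs of neighbours in this order, the values of the 2 libraries did not overlap in 6. The overlapping pairs were Ier2 with Junb, Junb with Nr4a1, and Fos with Atf3. For Cebpd with Egr1, and Egr1 with Fos, the values did not overlap, but the counting intervals did in both libraries. A long read is read along 1 cDNA rather than as fragments of it, so CPM was not divided by length. Per kilobase of the longest annotated transcript, Ier2 (77.1 ± 3.30 CPM per kilobase) moved above Jun (69.9 ± 12.9) because the Jun transcript is 3189 bases long and that of Ier2 1522, and the values of this pair overlapped. On that scale Cebpb stood at 2260 ± 127 CPM per kilobase and Jund at 443 ± 2.89, still first and next.

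Other immediate early genes and the signalling genes around them were mostly read at low levels. Of 24 further immediate early genes 22 were read, and Npas4, a neuronal activity factor, and Ptgs2, the inducible cyclooxygenase, were at 0. The highest were Rhob, a small GTPase gene (219 and 171 CPM), Mcl1, a survival factor gene (174 and 132 CPM), and Nfkbia, the inhibitor of NF-kappa-B (111 and 150 CPM). Arc was the lowest read, with 2 reads and 0. All 11 feedback regulators, which shut the MAP kinases or the messages down, were read. By mean level they were led by Dusp6 (116 and 135 CPM), Dusp1 (65.5 and 52.0 CPM) and Zfp36l1 (57.9 and 26.7 CPM). Zfp36l1 binds AU-rich elements, and 52.2% and 5.26% of its reads were on annotated transcripts. Dusp2 was the lowest, at 1 read in each library. All 19 upstream factors and kinases were read. They were led by Prkaca, the catalytic subunit of protein kinase A (516 and 472 CPM), and Mapk3, a MAP kinase gene (181 and 206 CPM), and the lowest was Mapk8 with 1 read and 0.

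None of the members was called different between the libraries. Of 7 members with at least 10 reads in all, 0 passed an adjusted p of 0.05 in the exact binomial test with Benjamini-Hochberg adjustment, against 199 of the 9271 genes tested, which is 2.15%. An unadjusted p under 0.05 was found for 2 members. The share of all tested genes under that unadjusted limit is not given here, so the count cannot be judged against it. For Cebpb the log2 ratio of replicate 2 over replicate 1 was 0.11 (95% interval 0.02 to 0.21, exact p = 0.0198, adjusted p = 0.287). For Jun it was -0.38 (-0.76 to 0.01, exact p = 0.0498, adjusted p = 0.432). The ratios of the 7 had a median of -0.01 and 4 were below 0, beside a median of 0.03 and 47.9% below 0 over all genes tested. With TMM scaling or DESeq2 size factors 0 members were called as well. The test compares these libraries, not conditions. Of the 5 brown fat markers, Ucp1 was lower in replicate 2 (209 and 199 reads, adjusted p = 7.43e-08, exact binomial test), and liver and fat cells also express Cebpb. Their part in its level was not tested.

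**Figure D2:**
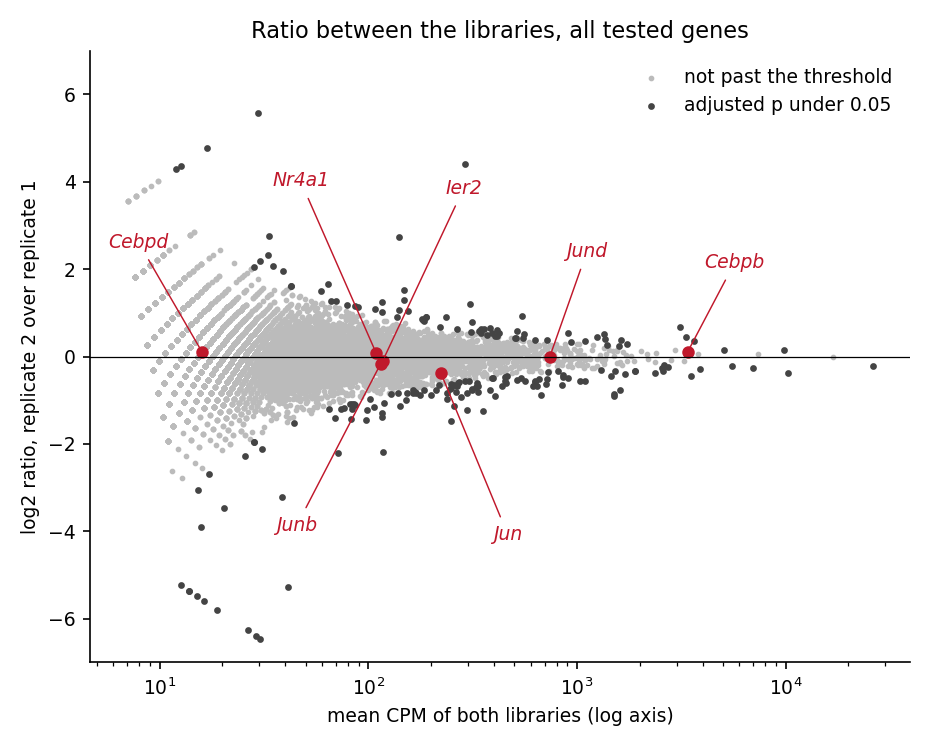
Log2 ratio of replicate 2 over replicate 1 against the mean CPM (log axis) for the 9271 tested genes, with the 199 past the threshold in dark grey and the 7 tested members in red. The members lie between -0.38 and 0.11, inside the cloud of genes of like level.

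Across the 6 context lists 1 gene was called, Dbp, with 148 and 510 reads (log2 ratio 0.94, adjusted p = 8.99e-11, exact binomial test). In its list of C/EBP relatives 1 of 7 tested genes was called. The calls were 0 of 9 among AP-1 and ATF relatives, 0 of 6 among EGR, KLF and NR4A relatives and 0 of 14 among other immediate early genes. They were also 0 of 8 among feedback regulators and 0 of 15 among upstream factors and kinases. The median log2 ratio of the feedback regulators was -0.66, and that of the other lists lay between -0.25 and 0.05. An unadjusted p under 0.05 was found for 1 AP-1 relative, 2 C/EBP relatives, Dbp among them, and 1 feedback regulator. These counts too lack the share over all tested genes.

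Gene structure divided the members. Cebpb, Cebpd, Jun, Junb, Jund and Ier2 have a main transcript of 1 exon, and Fos, Egr1, Atf3 and Nr4a1 are spliced. Junb and Cebpd each also have an annotated transcript of 2 exons, which had no reads. The share of a gene's reads assigned to annotated transcripts was 99.6% over all members in replicate 1 and 99.2% in replicate 2, 99.4% ± 0.33 (SD, n = 2). By gene it was 100% in both libraries for Jund, Junb, Ier2 and Cebpd. For Cebpb it was 100% and 99.9%, and for Jun 98.0% (93.0 to 99.4) and 97.1% (92.8 to 98.9). Nr4a1 had the lowest share of the 6 members with at least 20 reads in each library, at 88.1% (75.0 to 94.8) and 72.5% (61.9 to 81.1).

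These shares follow the gene's structure across the transcriptome. Of 135 annotated genes of 1 exon with at least 20 reads in each library, 116 (85.9%) had all their reads on annotated transcripts. These 135 include pseudogenes and genes of small nucleolar RNAs. Of the 67 that are protein-coding, as the members are, it was 53 (79.1%). The 3791 spliced genes had median shares of 84.0% and 83.9% (quartiles 71.2 to 91.6 and 70.1 to 92.1). A read without a junction inside a 1-exon gene is assigned to its annotated transcript even when it covers part of it, so the share says nothing of completeness there. Nr4a1 lay above 41.2% of the spliced genes. Between the libraries 0 of 6 tested members differed in annotated share in Fisher's exact test, adjusted or not, against 9 of 3926 genes, which is 0.229%. The value for Nr4a1 was exact p = 0.0658, adjusted p = 0.891.

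**Figure D3:**
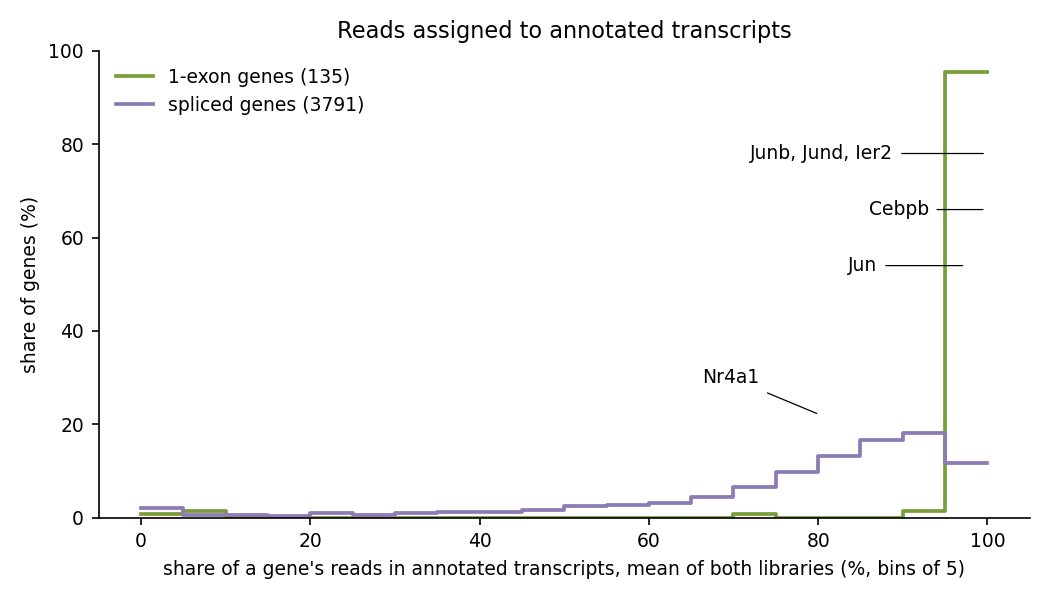
Distribution of the share of a gene's reads in annotated transcripts (x axis, percent, mean of both libraries, bins of 5) as the percent of genes (y axis), for 135 genes of 1 exon and 3791 spliced genes. Lines point at the values of the 6 members with enough reads; Nr4a1 lies among the spliced genes and the others at the right edge.

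Cebpb was the most read protein-coding gene of 1 exon and Jund the next. After them came Pcbp1, an RNA-binding protein gene (612 and 421 CPM), Rpl10-ps3, a copy of a ribosomal protein gene (410 and 466 CPM), mt-Co1, encoded in mitochondria (385 and 334 CPM), Sephs2, a selenophosphate synthetase gene (312 and 316 CPM), and H1f0, a linker histone gene (237 and 301 CPM). Reads of Rpl10-ps3 are uncertain, since close copies can share reads. The main transcript of Cebpb was 67.2% GC, above 99.8% of 3792 protein-coding genes with at least 20 reads in each library, whose median was 52.1%. Jund was at 67.1%, Junb at 62.6%, Ier2 at 60.9% and Jun at 55.5%. The pentamer ATTTA was absent from the annotated 3′ UTR of Cebpb and Ier2 and present 1 time in Jund, 2 times in Junb and Egr1, 3 times in Nr4a1 and Atf3, 4 times in Jun and Fos and 7 times in Cebpd. Protein-coding genes with a 3′ UTR of like length had a median of 0 copies for Cebpb, Jund and Junb, 1 for Ier2 and Fos, 2 for Jun, Egr1 and Atf3, 0.5 for Nr4a1 and 5 for Cebpd, whose UTR is 2900 bases long. The share of such genes with as many copies or more was lowest for Fos (8.70%) and Nr4a1 (9.44%).

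Jun, although annotated with 1 exon, had a spliced model with the same intron in both libraries. The intron, chr4:95051377-95051488 (minus strand), is 112 bases long, lies in the 5′ UTR and ends 105 bases before the coding start. It was carried by 2 of 100 reads in replicate 1 and 2 of 138 in replicate 2. Replicate 2 had a second intron, chr4:95049815-95049894, of 80 bases in the 3′ UTR, with 2 reads. In Cebpb, 1 of 2516 reads of replicate 2 lacked chr2:167689346-167689822, which is 477 bases or 159 codons of the coding sequence. The edges of these introns are shown because their letters can be read against the splice rule: 15 bases of exon and 15 of intron at each end, capitals marking the intron.
Jun 5′ UTR intron, donor side: cgggagcctaccaacGTGAGTGCTAGCGGA
Jun 5′ UTR intron, acceptor side: CAAACTTTGTTACAGaagcggggacgcgcg
Jun 3′ UTR intron, donor side: actgcaatagagactGTAGATTGCTTCTGT
Jun 3′ UTR intron, acceptor side: TAAGTGCCAGGCTAGactgcagatgaactc
Cebpb coding intron, donor side: gccgactacggttacGTGAGCCTCGGCCGC
Cebpb coding intron, acceptor side: CGGCTGCAGAAGAAGgtggagcagctgtcg
All 3 introns begin with GT and end with AG, the usual letters of a spliced intron. Alignment of spliced reads can favour these letters, and the aligner was not given, so the letters are not a test of splicing. The Cebpb gap is flanked by a repeat of 3 bases, so its exact edges could be shifted by as much, and the Jun introns are flanked by none. Another Cebpb read of replicate 2 belonged to a model of 1811 bases that starts 866 bases before the annotated start and leaves out chr2:167688368-167688926. A spliced model was present for 19 of the 135 genes of 1 exon (14.1%). The same intron was in both libraries in 9 of the 135 (6.67%), Jun included. Of the 67 protein-coding ones, 6 had reads on spliced models in both libraries.

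The spliced Jun models ended before the annotated end of the gene. They stopped 645 bases short in replicate 1 and 567 bases short in replicate 2, and both of the replicate 2 models ended at the same base. The bases around the last AATAAA, the signal that directs cleavage and addition of the poly(A) tail, are shown for each end, with the signal in capitals.
Jun, model end of replicate 1: ctgattactgtcAATAAAcagcttcctgcc
Jun, model end of replicate 2: tttaccatttgtAATAAAgtatataatttt
Jun, annotated end: gttcgttatcacAATAAAtgtattcaaata
The signal finished 42 bases before the replicate 1 end, 13 bases before the replicate 2 end and 32 bases before the annotated end. The next 20 genomic bases held 1 A after the replicate 1 end and 5 after the replicate 2 end. All 4 copies of ATTTA in the Jun 3′ UTR lie downstream of both ends. These ends rest on 2 and 4 reads and are positions of the models, which may not be those of each read. The replicate 1 end is also an edge of the opposite-strand model described below. Annotated models carry the annotated ends in the deposited tables, so where the other Jun reads ended is not known.

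**Figure D4:**
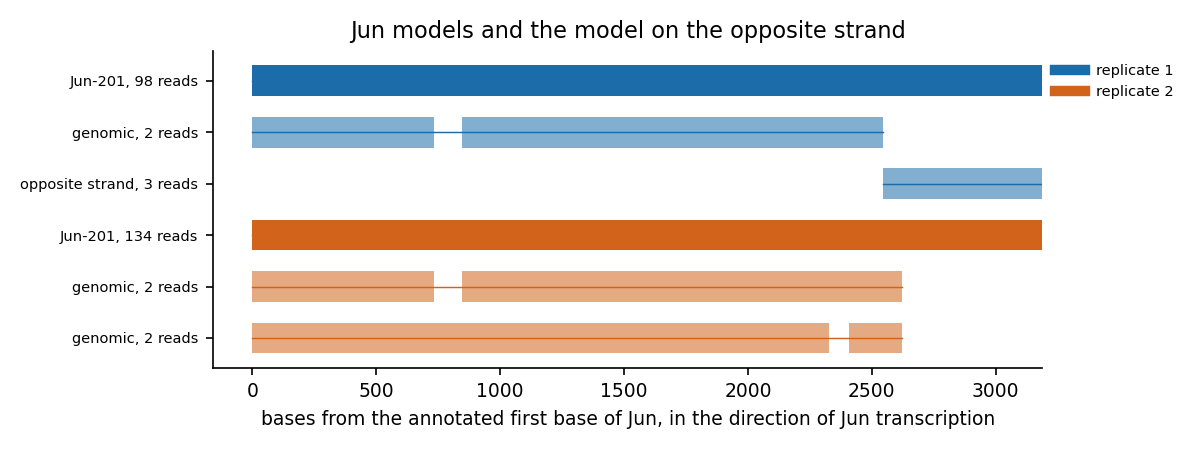
Models of Jun by library (blue replicate 1, orange replicate 2, pale for unannotated), drawn as exons (bars) and introns (lines) in bases from the annotated start in the direction of transcription, with the model on the opposite strand of replicate 1. The spliced model of replicate 1 and 1 of those of replicate 2 have the same intron, and the models stop 645 and 567 bases before the annotated end.

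Nr4a1 had more models than any other member, 7 in replicate 1 and 12 in replicate 2. Its main transcript, of 7 exons and 2477 bases, had 34 and 54 reads. Nr4a1-202, which begins at exons farther upstream, had 3 and 4 reads, or 8.11% (2.80 to 21.3) and 6.90% (2.71 to 16.4) of the annotated-transcript reads. Models that start inside the gene and match the rest of the chain had 1 read and 9 reads. One such chain, starting in exon 2, was seen in both libraries with 1 read and 5 reads. Reads on models that cover a whole intron of the main transcript numbered 2 of 42 (4.76%, 1.32 to 15.8) in replicate 1 and 13 of 80 (16.3%, 9.75 to 25.8) in replicate 2, and these intervals overlap. Intron 6 (802 bases) was covered by models with 0 reads and 8 reads. Of these 8, 6 were on a model of 1 exon and 1603 bases that runs from the last base of exon 6 to the end of the gene. A model with 2 reads over intron 2 likewise starts at the last base of exon 2. These starts are positions of the models, so whether each read covers the whole intron is not known. A model of 6 exons and 3243 bases that keeps intron 2 (766 bases) had 1 read in each library.

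**Figure D5:**
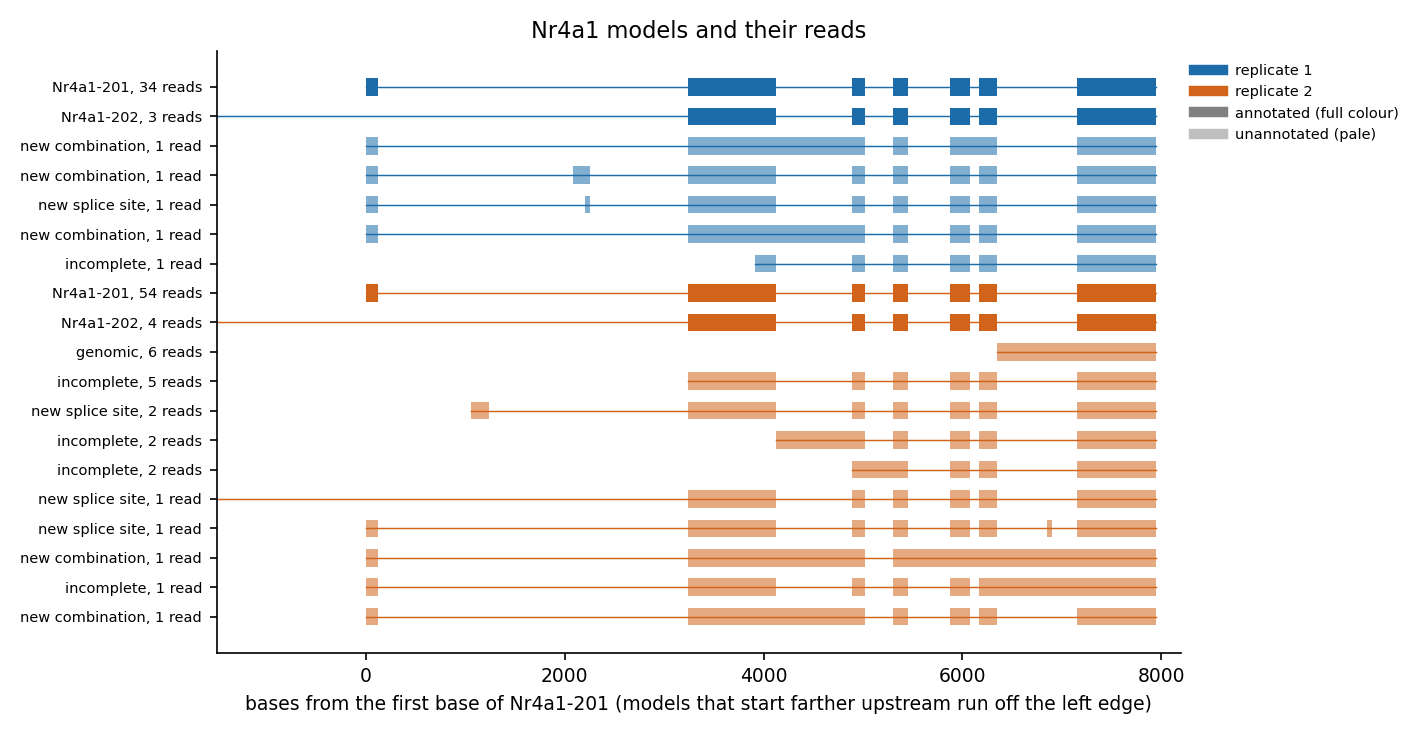
Models of Nr4a1 with their reads by library (blue replicate 1, orange replicate 2, pale for unannotated), drawn as exons (bars) and introns (lines) in bases from the first base of the main transcript. Replicate 2 has more models that begin inside the gene, among them the genomic model with 6 reads over intron 6.

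Over all members, unannotated models numbered 6 with 7 reads in replicate 1 and 15 with 29 reads in replicate 2. In replicate 1, 6 of the 7 reads (85.7%) were on models that start within 50 bases of an annotated start, and 5 (71.4%) on models that end within 50 bases of an annotated end, while 1 read (14.3%) was on a model starting over 500 bases away. In replicate 2 the shares were 34.5% for starts and 86.2% for ends, and 44.8% of reads were on models starting over 500 bases away. Of the 13 reads on such distant starts in replicate 2, 11 were of Nr4a1, 1 of Cebpb and 1 of Egr1. The difference between the libraries was not tested. In replicate 2, 13 of the 15 models end exactly at an annotated transcript end, so these positions are those of the model and not of each read. Egr1 gave 1 read on a 1-exon model of 1815 bases that starts inside its last exon.

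Models on the opposite strand were few once neighbouring genes were set apart. Over the spans of the members 336 reads in replicate 1 and 652 in replicate 2 lay on the other strand. Of these, 328 and 636 were reads of Prdx2, a peroxiredoxin gene whose end overlaps only the 2-exon transcript Junb-202, which had no reads, and not the 1-exon transcript. Spidr, a DNA repair gene that runs into the Cebpd 3′ UTR from the other side, gave 5 reads in each library. Cebpd had 6 and 12 sense reads. Gm11175, annotated as antisense to Jund, had 0 reads in replicate 1 and 9 in replicate 2, beside 295 and 524 of Jund. Of these 9, only 3 were on an annotated transcript. The other 6 were on a 1-exon genomic model of 3758 bases that lies mostly outside the annotated gene. Across Jun, replicate 1 had an unannotated opposite-strand model of 646 bases with 3 reads, which covers the 3′ end of the gene up to the base where the spliced sense model stops. Both of its edges are also ends of sense Jun models, so they may not be the ends of its own reads. Replicate 2 had 1 read of Junos, the annotated antisense gene at the Jun start. Across Cebpb, Ier2, Nr4a1, Fos and Atf3 both libraries had 0 reads on the opposite strand. For Cebpb that is 0 beside 1296 and 2516 sense reads.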

How the data were processed

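The authors sequenced total RNA of 2 adrenal libraries with long reads. Per the file headers, the deposited tables give whole-read counts per transcript model, named by TALON against GENCODE M21 on mm10. The aligner was not given in the sources used here.

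Gene counts are sums over all models of a gene, divided by the total on annotated mouse genes (397176 and 712032 reads). Wilson and exact Poisson intervals are at 95%. The libraries were compared with an exact binomial test per gene (10 or more reads in all) and, for annotated shares, Fisher's exact test (20 or more reads in each). Both were two-sided, with Benjamini-Hochberg adjustment over all genes tested and calls at 0.05. For log2 ratios, 0.5 was added to every count. Model exons were compared with GENCODE exons, opposite-strand models by coordinates. Promoters came from RefSeq (GRCm38.p6), other sequence from GENCODE transcripts.

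Tools were Python 3.11.15, SciPy 1.17.1, R 4.3.3, edgeR 4.0.16 (TMM) and DESeq2 1.42.0 (size factors). The binomial test was tested on simulated data. The members and lists were chosen with earlier results of these data known. Besides the 10 members, the genes named were the 2 above and 2 below Cebpb by mean level, the 3 highest and the lowest read gene of each list, list genes past the threshold and the 5 highest other protein-coding genes of 1 exon; Ptgs2, Npas4 and other list genes at 0, Nr4a2 and the genes overlapping a member on the other strand were named by their place in the list or gene. Of the listed genes, 2 that these rules or the marker lists would name are not reported here. The listed symbols Cyr61, Ctgf, Mkl1 and Mkl2 were matched to Ccn1, Ccn2, Mrtfa and Mrtfb. Alternatives were each library alone, annotated transcripts alone, reads without genomic models, other scalings, other read minimums and length scaling.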

Additional observations from a re-analysis of the deposited data

How the results depend on the processing

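The summed level of the 10 genes, 4724 CPM ± 136 (SD, n = 2), was 4628 to 4820 when either library was left out and 4723 with TMM scaling. It was 6093 CPM with annotated transcripts alone, 5001 without genomic models and 4473 scaled to all mouse reads, because the totals differ. Of 60 alternatives for the level of a single member, 48 stayed within 1 SD of its reported level and 12 did not. The 48 include alternatives that could not move. With 2 libraries, either one alone always lies within 1 SD of their mean, and Atf3 had 0 reads throughout. All 12 that moved came from annotated transcripts alone, reads without genomic models or scaling to all mouse reads. The neighbours in the reported order numbered 9 with both libraries and 7 to 8 with either alone: in replicate 1 Ier2 tied with Junb and Fos with Atf3, and in replicate 2 Nr4a1 was above Junb. The pairs that did not overlap numbered 7 with annotated transcripts alone and 6 per kilobase. The number of genes called between the libraries was 152 to 203, and no member was called under any of the 5 alternatives. The log2 ratio of Nr4a1, 0.08, was -0.20 with annotated transcripts alone and -0.033 without genomic models, and was called in none. The annotated share of the members was 99.2% to 99.6% with either library alone. The median annotated share of 1-exon genes exceeded that of spliced genes by 16.0 percentage points, and by 12.1 with at least 50 reads in each library. Counts of genes differing in annotated share (9) and of opposite-strand reads (988) were the same under their alternatives. The share of unannotated reads starting over 500 bases away, 29.6% ± 21.6 (SD, n = 2), differed widely between the libraries and was 26.2% for models with at least 2 reads. No paired analysis was possible because there is only 1 group. Depth limits the members with under 20 reads (Cebpd, Egr1, Fos and Atf3), and the Jun introns and the Nr4a1 models rest on a few reads each.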
